A study of Mus musculus with 6 samples.

Results

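The T cell receptor beta locus (Trb) was examined through its V, D, J and C gene segments, chosen as every gene of the deposited normalized table whose symbol begins with Trbv, Trbd, Trbj or Trbc. The rule gave 44 of the 16448 genes of that table: 26 V segments, 2 D segments, 14 J segments and 2 C regions. The same table annotates 5 V segments and 1 J segment (Trbj2-6) as pseudogenes. The members lie on build mm10 at chr6:40891229-41558452, and all but Trbv31 are on the plus strand. RNA was sequenced from CD4+CD8+ double-positive thymocytes sorted by flow cytometry from C57BL/6 mice. The knockout group (labelled KO, 3 libraries) had the genotype Mettl14 fl/fl; CD4-Cre+, and the control group (labelled WT, 3 libraries) came from littermates, whose floxed alleles and Cre status the labels do not give. Neither the age of the mice nor whether each library came from a separate mouse is stated, so the p-values speak only of the spread among the libraries at hand. The series title places the comparison in the development of invariant natural killer T cells, p53-dependent apoptosis and T cell receptor signalling.

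The beta chain of the T cell receptor is assembled from germline segments by the Rag recombinase, first a D to a J and then a V to the joined DJ. The mouse locus has a long array of V segments followed by a tandem pair of clusters, each with a D segment, a row of J segments and a C region, and a last V segment, Trbv31, in inverted orientation behind the second C region. Rearrangement of the beta locus takes place mainly at the double-negative stage, and the finished chain is tested with the pre-T alpha chain before a thymocyte becomes double-positive. CD4-Cre is driven by regulatory sequence of Cd4, a gene that is switched on as cells become double-positive. Mettl14 codes for the RNA-binding partner of Mettl3, with which it forms the m6A methyltransferase.

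The D segments and the J segments on which the results turn are short enough to show whole, as the GENCODE M21 transcripts have them, read 5′ to 3′ on the plus strand. Trbj1-3 and Trbj1-5 are the J segments that differed most between the groups, Trbj2-7 had the highest mean J level over the 6 libraries (in controls Trbj1-2 and Trbj1-5 had higher mean shares of J counts), and Trbj1-6, Trbj1-7 and Trbj2-6 are the ones in which the motif was not found. Capitals mark the letters TTNGGNNNNGGN, a pattern that covers the codons for the phenylalanine, glycine, any residue, glycine stretch that J segments carry into the receptor.
Trbd1: gggacagggggc
Trbd2: gggactgggggggc
Trbj1-3: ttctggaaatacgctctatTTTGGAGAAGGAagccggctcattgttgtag
Trbj1-5: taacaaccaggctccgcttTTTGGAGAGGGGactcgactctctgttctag
Trbj1-6: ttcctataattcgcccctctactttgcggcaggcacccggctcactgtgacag
Trbj1-7: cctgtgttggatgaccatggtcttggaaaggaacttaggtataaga
Trbj2-6: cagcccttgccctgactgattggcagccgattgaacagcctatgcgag
Trbj2-7: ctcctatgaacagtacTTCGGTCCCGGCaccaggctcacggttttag

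Trbd1 lies at chr6:41533201-41533212 and Trbd2 at chr6:41542163-41542176. Trbj1-3 is at chr6:41534323-41534376, with 54 exon bases, while the transcript shown has 50. Trbj1-5 is at chr6:41535084-41535133, Trbj1-6 at chr6:41535554-41535606 and Trbj1-7 at chr6:41535642-41535687. In the second cluster, Trbj2-6 is at chr6:41543598-41543645 and Trbj2-7 at chr6:41543810-41543856. The motif, searched on both strands, was found on the plus strand of 11 of the 14 J segments (78.6%) and on the minus strand of 0 of them. It was also found in 56 of the 80 other T cell receptor and immunoglobulin J segments of GENCODE M21 (70.0%). A segment without a match lacks only these letters.

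Each library held between 29500254 and 33377056 counts in genes, and the Trb members took 135570 to 160561 of them (0.453% to 0.481%). Mettl14, the targeted gene, checked the labels: its CPM values, counts scaled to library size with the TMM factor, were 52.1, 58.8 and 55.8 in the controls and 42.2, 40.3 and 36.4 in the knockouts. The groups did not overlap, although the fitted difference did not pass the threshold (log2 fold change -0.49, SE 0.086, edgeR adjusted p = 0.289), and the labels do not say which exons are floxed. The libraries carried the RNA of the labelled stage, with Cd4 at 1864 to 2230 CPM and Cd8a at 2846 to 3316 CPM. Of markers of other cells, 6 of 7 gamma-delta and innate lymphocyte genes were counted and summed to 2.49 to 3.42 CPM in controls and 6.80 to 8.68 CPM in knockouts, with Zbtb16 at 0 in 3 libraries. The 6 myeloid and dendritic genes summed to 60.0 to 66.3 CPM in controls and 68.9 to 87.2 CPM in knockouts, most of it Cst3 (51.0 to 60.1 CPM), with Itgax at 0 in 1 library. The 5 B cell genes overlapped between the groups (796 to 845 CPM in controls and 797 to 844 CPM in knockouts), nearly all of it Ighm (771 to 828 CPM), while Cd79a was 0.307 to 0.454 CPM in controls and 0.597 to 1.998 CPM in knockouts. The 4 double-negative genes, the 5 mature single-positive genes and the 3 red cell genes also overlapped in sum, the red cell genes at no more than 0.363 CPM, with Hba-a1 and Alas2 each at 0 in 4 libraries. The part of these other cells in the Trb results was not tested, and in bulk RNA fewer cells using a segment and less RNA per cell cannot be told apart.

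Differences in the beta segments between the groups were small, at most 0.30 in size on the log2 scale. None of the 42 tested members (Trbv6 and Trbv25 were too low to test) passed the threshold between knockout and control with edgeR, against 0.0383% of all genes (0.00767% higher and 0.0307% lower), and the lowest edgeR adjusted p among them was 0.690. DESeq2 and limma-voom also called 0 members, against 0.675% and 0.0537% of all genes, and so did the authors' deposited table, against 0.762%. At an unadjusted p under 0.05, edgeR gave 5 of 42 members (11.9%, against 6.72% of all genes): Trbv14, Trbv13-2 and Trbv1 with higher values in knockouts (3 members, against 3.41% of all genes), and Trbj1-3 and Trbj1-5 with lower values (2 members, against 3.31%). DESeq2 gave 4 members at that unadjusted p, against 6.84% of all genes. The edgeR count was 0 without control replicate 2 (against 4.10% of all genes) or without knockout replicate 1 (against 4.52%), and 3 of 43 without control replicate 3 (6.98%, against 12.8%), so the members' share was not above that of all genes in every setting. The 3 knockout values lay apart from the 3 control values for 9 members (21.4%, against 12.6% of all genes), 4 higher (against 6.59%) and 5 lower (against 5.97%). These segments are joined to each other in the same transcripts, so their values are not independent.

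**Figure D1:**
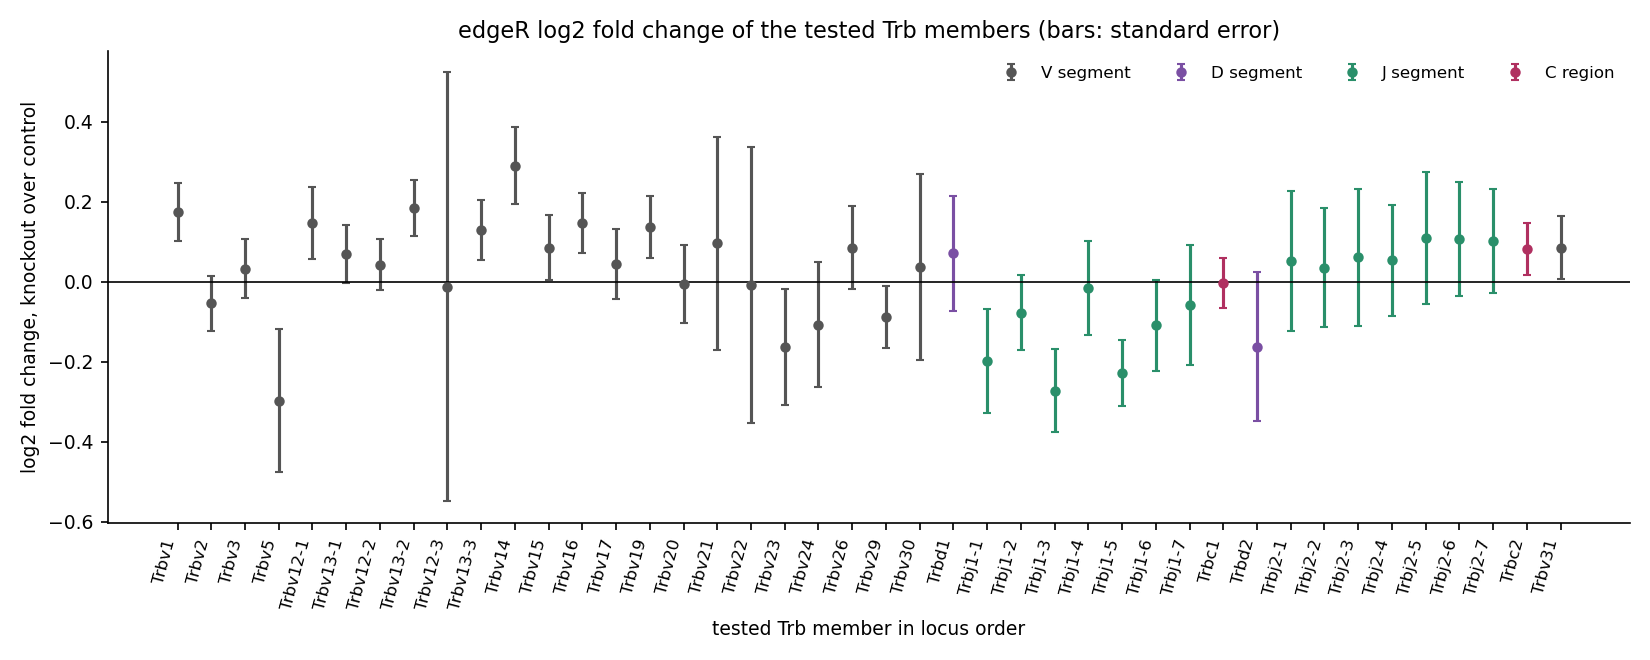
Log2 fold change of knockout over control for the 42 tested members in locus order, with bars giving the standard error of the edgeR fit. Most V segments lie a little above 0, the 7 Trbj1 segments lie below it, and no member lies beyond 0.30 in either direction.

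**Figure D2:**
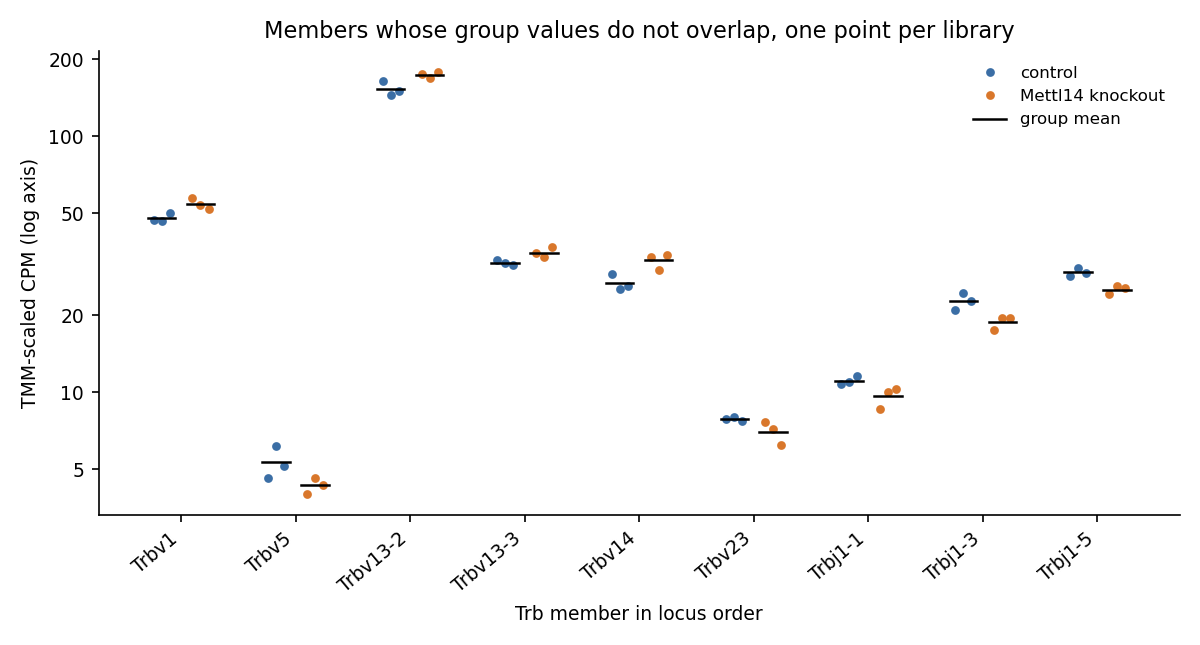
TMM-scaled CPM on a log axis for the 9 members whose knockout and control libraries do not overlap, 1 point per library, with a black line at each group mean. Trbv1, Trbv13-2, Trbv13-3 and Trbv14 are higher in the knockouts, and Trbv5, Trbv23, Trbj1-1, Trbj1-3 and Trbj1-5 are lower.

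The V segments supply most of the part of the beta chain that meets antigen and the MHC molecule. Of the 21 tested V segments that are not pseudogenes, 16 had a fold change above 0 and 5 below, with a median log2 fold change of 0.085 beside -0.0040 over all genes tested, and 0 passed the threshold. Without knockout replicate 1 that median was 0.024. Summed V levels were 1037, 1001 and 1010 CPM in controls and 1123, 1034 and 1084 CPM in knockouts. Knockout replicate 2 fell below control replicate 1 and above the other controls, so the groups overlapped by that pair of libraries alone. The means were 1016 ± 18.7 and 1080 ± 44.3 CPM (SD, n = 3 each).

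Trbv14 (chr6:41135145-41135616) had the lowest p of the members. Its CPM values were 29.0, 25.2 and 25.9 in controls and 33.7, 30.1 and 34.3 in knockouts. All 3 knockouts were above all 3 controls, and the log2 fold change was 0.29 (SE 0.096, edgeR unadjusted p = 0.0165, adjusted p = 0.690). As a share of V counts, which removes differences in total V RNA, Trbv14 took 2.80%, 2.52% and 2.56% in controls and 3.00%, 2.91% and 3.16% in knockouts. It was the 1 segment of 26 whose share was higher in every knockout than in every control, by 0.396 percentage points (two-sided exact permutation p = 0.1, the smallest that 3 against 3 libraries allow; Benjamini-Hochberg adjusted 0.578 over 26 segments). The 95% Clopper-Pearson interval of the highest control share, 2.63% to 2.98%, overlapped that of the lowest knockout share, 2.72% to 3.10%; such intervals cover counting error only.

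Trbv13-2, a V beta 8 segment (chr6:41121396-41121832), was the most used V segment in every library. Its CPM values were 165, 145 and 150 in controls and 175, 169 and 179 in knockouts. The groups did not overlap, and the log2 fold change was 0.18 (SE 0.070, edgeR unadjusted p = 0.0308, adjusted p = 0.715). Its share of V counts was 15.9%, 14.5% and 14.8% in controls and 15.6%, 16.3% and 16.5% in knockouts. By share the groups overlapped, since control replicate 1 exceeded knockout replicate 1 (15.1% ± 0.718 against 16.1% ± 0.490, SD, n = 3 each; exact permutation p = 0.2).

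Invariant natural killer T cells of the mouse mostly pair their fixed alpha chain with V beta 8, V beta 7 or V beta 2, coded by the Trbv13 segments, Trbv29 and Trbv1. The 3 Trbv13 segments together held 26.2%, 25.2% and 25.4% of V counts in controls and 25.9%, 26.6% and 27.4% in knockouts. With Trbv29 and Trbv1 added, the share was 34.3% to 35.0% in controls and 34.5% to 36.3% in knockouts, and the groups overlapped in both sums. Within the group, Trbv13-1 and Trbv29 overlapped between the groups, with log2 fold changes of 0.070 (SE 0.073) and -0.087 (SE 0.078). Trbv13-3 was 32.8, 32.0 and 31.4 CPM in controls and 34.9, 33.6 and 36.8 CPM in knockouts, which did not overlap (log2 fold change 0.13, SE 0.076, edgeR unadjusted p = 0.126). Trbv1, the first V segment of the locus, was 47.2, 46.8 and 50.3 CPM in controls and 57.3, 53.7 and 51.8 CPM in knockouts. Its groups did not overlap in CPM (log2 fold change 0.17, SE 0.073, edgeR unadjusted p = 0.0443, adjusted p = 0.733), but they did in share of V counts (4.74% ± 0.221 against 5.03% ± 0.216, SD, n = 3 each).

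A further 3 V segments had lower shares in every knockout than in every control. With Trbv14 this made 4 of 26 segments that separated fully. Of all ways to label 3 against 3 libraries, a fraction of 0.1 separates a segment this fully. Trbv2 took 8.85%, 8.57% and 9.16% of V counts in controls and 8.05%, 8.41% and 7.63% in knockouts, a difference of -0.828 points (exact permutation p = 0.1, adjusted 0.578). It ranked 2 of 26 by mean share and 8 of 26 per kilobase of exon (158 CPM per kb). Its CPM level overlapped between the groups, with a log2 fold change of -0.054 (SE 0.069). Trbv23 took 0.757%, 0.799% and 0.761% in controls and 0.679%, 0.694% and 0.572% in knockouts. Trbv5 took 0.446%, 0.614% and 0.511% in controls and 0.357%, 0.445% and 0.400% in knockouts, so the closest libraries of the 2 groups were almost level. The long noncoding RNA 5830405F06Rik, on the same strand, covers 79.3% of the exon bases of Trbv5, and its reads and those of Trbv5 cannot be told apart with certainty.

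**Figure D3:**
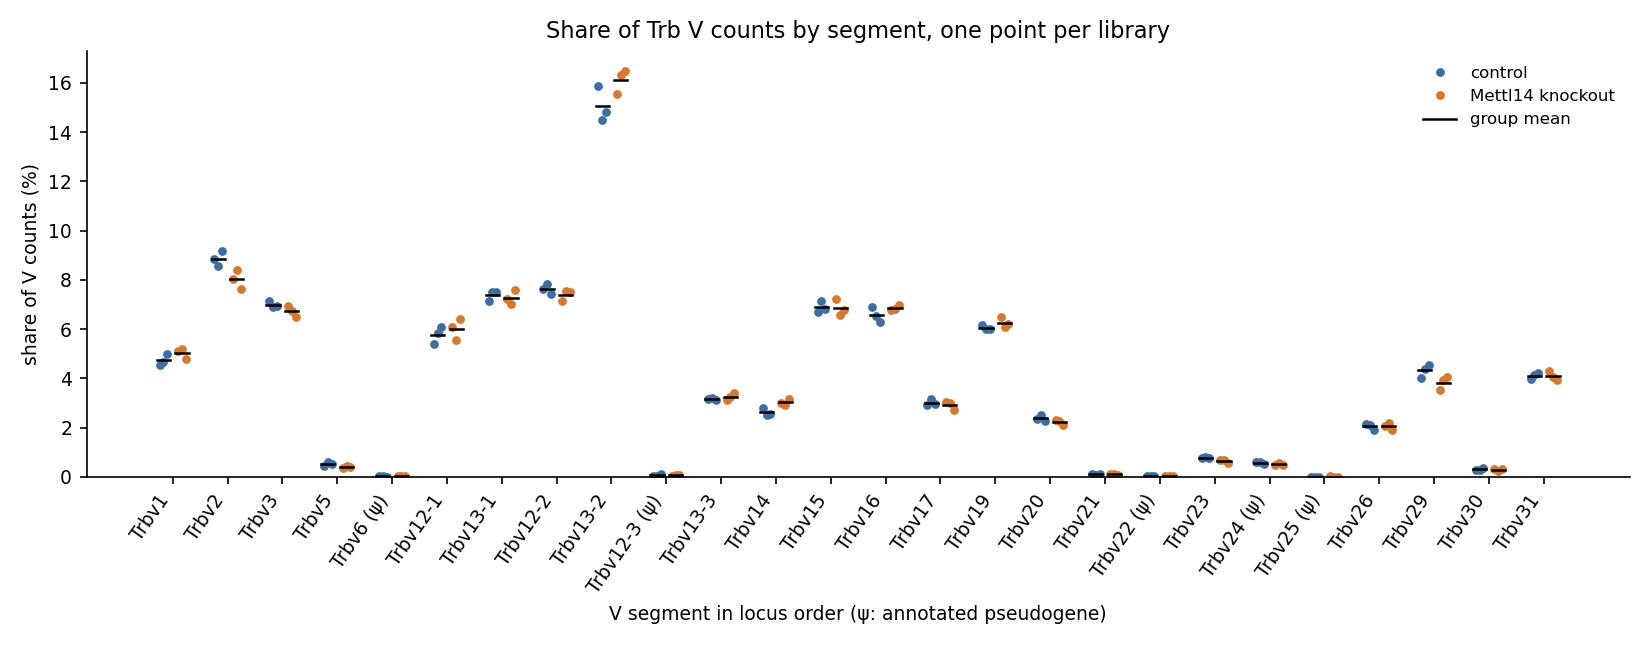
Share of V counts taken by each of the 26 V segments in locus order, 1 point per library, with a black line at each group mean. Trbv13-2 stands at 14.5% to 16.5% in every library, the pseudogenes sit near 0, and the control and knockout points interleave for 22 segments.

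V segments differed far more from each other than a segment did between the groups. The 8 segments with the largest mean shares (Trbv13-2, Trbv2, Trbv12-2, Trbv13-1, Trbv15, Trbv3, Trbv16 and Trbv19) held 65.0% to 66.3% of V counts in the 6 libraries, and the 5 pseudogenes together 0.595% to 0.751%. Shares are not corrected for exon length. Per kilobase, Trbv12-1 ranked 6 (159 CPM per kb) and Trbv19 ranked 11 (114 CPM per kb). Across the 26 segments the control and knockout mean shares had a Pearson correlation of 0.997, a description over segments that share libraries and are not replicates. Pairs of control libraries differed in the placement of 1.94% to 2.96% of their V counts, pairs of knockout libraries in 2.56% to 3.19%, and a control and a knockout library in 1.64% to 4.27%. The smallest of all these distances, 1.64%, was between control replicate 1 and knockout replicate 2. Trbv31, which joins by inversion rather than deletion, took 3.97% to 4.201% of V counts in controls and 3.94% to 4.29% in knockouts.

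Per kilobase of exon, V levels averaged over the 6 libraries ran from 481 CPM per kb for Trbv13-2 to 0.293 CPM per kb for the pseudogene Trbv25. In that order 7 of the 25 neighbouring pairs had ranges that did not overlap, among them Trbv13-2 from Trbv13-1 (210 CPM per kb), and 18 overlapped. Trbv24, annotated as a pseudogene, was the highest of the 5 at 16.4 CPM per kb, between Trbv23 (21.4 CPM per kb) and Trbv5 (13.1 CPM per kb), which are not annotated as pseudogenes, and while the ranges over all libraries overlapped, this order held in 6 of 6 libraries. Since 5830405F06Rik covers 79.3% of the exon bases of Trbv5, the level and place of Trbv5 are uncertain. Trbv21 was the lowest segment not annotated as a pseudogene, at 2.87 CPM per kb.

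The D segments form the centre of the antigen-binding loop that spans the junction. Trbd1 was at 5.63 to 6.18 CPM in controls and 5.94 to 6.33 CPM in knockouts, and Trbd2 5.30 to 7.30 and 4.81 to 5.87 CPM. Both overlapped between the groups. With 329 to 427 D counts per library, the share of Trbd2 among them had a 95% interval more than 9 points wide in every library.

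The J segments link the D to the C region, and the J of a transcript tells which cluster was used. All 7 Trbj1 segments had a fold change below 0 in the knockouts (median log2 fold change -0.11) and all 7 Trbj2 segments had one above 0 (median 0.062), while 0 of the 14 passed the threshold. The second of these directions rested on control replicate 1: without it the Trbj2 median was -0.050 with all 7 below 0, and without control replicate 3 it was 0.23. The first kept its median below 0 whichever library was left out (-0.19 to -0.073), although Trbj1-4 and Trbj1-7 turned above 0 without control replicate 3 or knockout replicate 1.

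Trbj1-5 was 28.4, 30.6 and 29.3 CPM in controls and 24.1, 25.9 and 25.4 CPM in knockouts. The groups did not overlap, and the log2 fold change was -0.23 (SE 0.082, edgeR unadjusted p = 0.0252, adjusted p = 0.713). Trbj1-3 was 20.98, 24.3 and 22.8 CPM in controls and 17.4, 19.4 and 19.5 CPM in knockouts. It too was lower in every knockout, with a log2 fold change of -0.27 (SE 0.10, edgeR unadjusted p = 0.0309, adjusted p = 0.715). Trbj1-1, with the lowest mean J level over the 6 libraries, was 10.7, 10.9 and 11.5 CPM in controls and 8.59, 9.99 and 10.3 CPM in knockouts, apart by a narrow margin (log2 fold change -0.20, SE 0.13, edgeR unadjusted p = 0.168). As a share of J counts its groups overlapped (3.76% to 4.39% in controls, 3.25% to 3.82% in knockouts).

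As shares of J counts, Trbj1-5 took 11.6%, 10.9% and 9.55% in controls and 9.14%, 9.33% and 9.42% in knockouts. Trbj1-3 took 8.61%, 8.67% and 7.42% in controls and 6.61%, 7.004% and 7.21% in knockouts. For both, control replicate 3 stood close to the knockouts and the other controls well above them. Trbj2-6 took 7.35%, 8.14% and 8.50% in controls and 8.72%, 9.09% and 8.77% in knockouts, the 1 J segment with a higher share in every knockout. Its CPM values overlapped between the groups (17.9 to 26.1 in controls, 23.0 to 25.2 in knockouts). Each of these 3 share differences had an exact permutation p = 0.1, the smallest possible, and an adjusted p of 0.467 over 14 segments. Full separation in 3 of 14 segments stands beside the fraction of 0.1 of label assignments that separate a segment this fully. Taken within its own cluster rather than over all J counts, 1 segment, Trbj1-3, had groups that did not overlap. Trbj1-5 and Trbj2-6 overlapped on that measure.

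**Figure D4:**
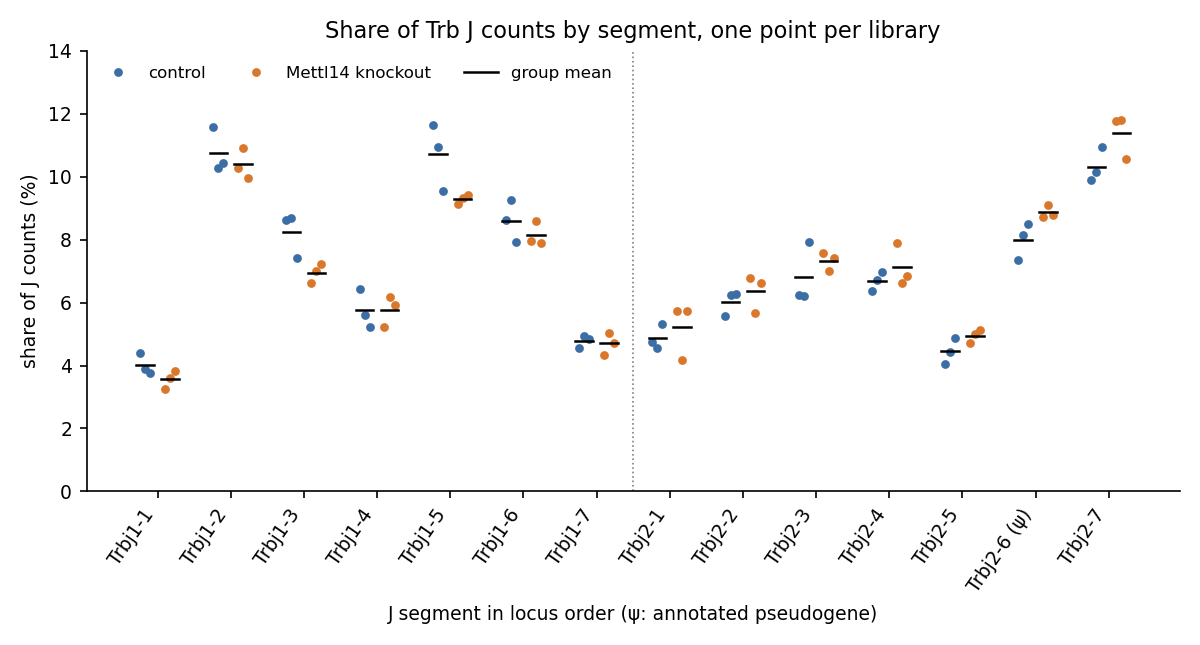
Share of J counts taken by each of the 14 J segments in locus order, 1 point per library, with a black line at each group mean and a dotted line between the clusters. Shares run from 3.25% for Trbj1-1 to 11.8% for Trbj2-7 among the knockouts, and control and knockout points overlap for 11 segments.

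J use was more even than V use. Per kilobase the J segments averaged from 632 CPM per kb for Trbj2-7 to 215 CPM per kb for Trbj1-1, and every one of the 13 neighbouring pairs in that order overlapped. Trbj2-6, the annotated pseudogene without the motif, ranked 4 of 14 at 482 CPM per kb, next to Trbj1-5 (546 CPM per kb). Gene counts do not separate a J segment joined to a V from germline or read-through RNA of the cluster. Control libraries differed from each other in the placement of 3.55% to 6.93% of their J counts, knockout libraries in 3.00% to 4.51%, and a control and a knockout in 2.02% to 9.02%. The smallest of these, 2.02%, was between control replicate 3 and knockout replicate 3, and the largest between control replicate 1 and knockout replicate 1.

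The C regions code for the constant part of the chain, whose 2 forms are nearly alike in sequence. Trbc1 (chr6:41538218-41539881) was 1241, 1191 and 1261 CPM in controls and 1193, 1272 and 1218 CPM in knockouts, and Trbc2 (chr6:41546730-41548352) was 2166, 1993 and 2041 CPM and 2233, 2218 and 2109 CPM. Neither separated the groups (log2 fold changes -0.0037, SE 0.062, and 0.081, SE 0.065). Per kilobase of exon Trbc2 exceeded Trbc1 1.75 to 2.03 times in every library. The 2 transcripts share 283 of their 50-base words, 40.5% of those of Trbc1 and 44.0% of those of Trbc2, so reads there could be dropped as not unique.

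The share of the second D-J-C cluster was taken among the C, the J and the D counts. Whether the D share measures use of that cluster was not tested. Trbc2 made up 63.6%, 62.6% and 61.8% of C counts in controls and 65.2%, 63.5% and 63.4% in knockouts. The groups overlapped, as control replicate 1 lay above knockout replicates 2 and 3, and the difference of means was 1.38 points (exact permutation p = 0.3, adjusted 0.4 over 3 measures). The Trbj2 segments made up 44.2%, 46.4% and 50.8% of J counts in controls and 53.2%, 49.3% and 51.1% in knockouts. Control replicate 3 lay inside the knockout range, and the difference was 4.06 points (exact permutation p = 0.2, adjusted 0.4). Trbd2 made up 47.6%, 56.4% and 47.5% of D counts in controls and 49.7%, 43.2% and 47.1% in knockouts, a difference in the other direction, -3.87 points (exact permutation p = 0.4). The C and J measures did not order the control libraries alike: replicate 1 had the highest Trbc2 share and the lowest Trbj2 share.

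**Figure D5:**
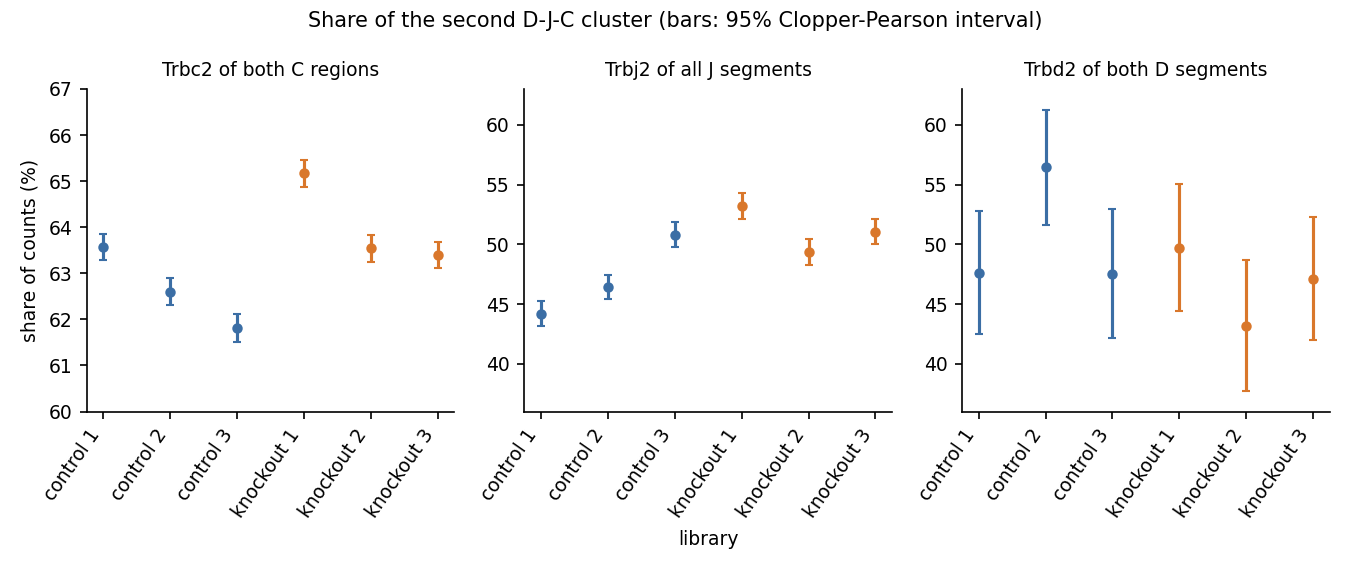
Share of the second cluster among C, J and D counts in each library, with 95% Clopper-Pearson intervals for counting error; the vertical axes do not start at 0 and the C panel has a narrower range. Control replicate 1 is the highest control in the C panel and the lowest in the J panel, and knockout and control points overlap in all 3 panels.

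Summed J and C levels overlapped between the groups. J segments together were 244, 280 and 307 CPM in controls and 264, 278 and 270 CPM in knockouts, so the controls spread far wider than the knockouts and enclosed them. C regions together were 3407, 3183 and 3303 CPM in controls and 3426, 3490 and 3327 CPM in knockouts. The groups overlapped, with means of 3298 ± 112 and 3415 ± 82.0 CPM (SD, n = 3 each).

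None of the listed genes that work with the beta locus passed the threshold either. Of 6 receptor partners (the alpha constant region, pre-T alpha and the CD3 chains), 0 passed the threshold, with 5 fold changes above 0 and 1 below. Ptcra, which codes for the pre-T alpha chain that pairs with a new beta chain, was 40.5, 37.1 and 42.0 CPM in controls and 54.1, 47.0 and 51.8 CPM in knockouts. Its groups did not overlap, and its log2 fold change was 0.35 (SE 0.086, edgeR unadjusted p = 0.00342, adjusted p = 0.488). Of 11 V(D)J recombination genes 0 passed, with 7 above and 4 below 0, and Rag1, the recombinase subunit that cuts the segments, overlapped between the groups at 4589 to 5308 CPM. Of 10 factors known to bind the locus 0 passed, with 8 above and 2 below 0 and a median log2 fold change of 0.017. Of 11 neighbouring genes, 3 were at 0 in every library and 4 were high enough to test, all with a fold change below 0 (median -0.23), and 0 passed. Trpv6, too low to test at 1 to 32 counts per library, was 0.936, 0.333 and 0.273 CPM in controls and 0.0663, 0.0339 and 0.124 CPM in knockouts, which did not overlap. The most abundant neighbour was Ephb6, just beyond Trbv31, at 375 to 489 CPM in controls and 327 to 429 CPM in knockouts.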

How the data were processed

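Raw counts per gene for each library were deposited by the authors. The submitters' processing notes list Trimmomatic 0.33, the aligner STAR 2.5.2, the counter HTSeq, DESeq2 and build mm10; how HTSeq was set for overlaps and strand, and its annotation, are not given. A read across a V-D-J junction has no unbroken match in the genome, and how such reads were aligned and counted is not given either; this bears most on the short D and J segments. The authors also deposited a normalized signal, counts over a size factor, together with their log2 fold changes, p-values and the test statistic, a score. The signal itself was not used beyond choosing the members, whose annotation as gene or pseudogene came with it.

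The members and gene lists were chosen with earlier results of these data known. Reads with no feature (12.3% to 15.2% of those counted), not unique (22.6% to 23.9%) and ambiguous (0.653% to 0.701%) stayed out of library sizes and tests. All genes kept by filterByExpr (13039) were fitted with edgeR 4.0.16 in R 4.3.3 (TMM scaling, group as the only term of the quasi-likelihood test, two-sided p adjusted by Benjamini-Hochberg over all of them, threshold 0.05); the SE is the log2 fold change over the square root of F. DESeq2 1.42.0 and limma-voom 3.58.1 were alternatives, as were upper-quartile and RLE scaling, no filter, replicate blocks and leaving out each library. Shares are a segment's count over the summed counts of the V or of the J members in the library, compared by a two-sided exact permutation test over libraries (scipy 1.17.1) with Benjamini-Hochberg adjustment. Levels per kilobase use the exon union of GENCODE M21, whose coordinates equal those in the deposited table for 44 of 44 members; for 9 members the deposited length was 1.67 to 1.99 times the union. The alternative that counts shares per kilobase used the same union. Named were Mettl14, every D, J and C member, the 8 V segments with the largest mean share, Trbv13-1, Trbv13-2, Trbv13-3, Trbv29, Trbv1, Trbv31 and up to 4 members in each direction with the lowest p; Trbv23, Trbv24, Trbv25, Trbv6, Trbv21 and the neighbour Trpv6 were named after their values were seen. The marker symbols Tcrg-C1, Tcrg-C2 and Tcrg-C4 were matched through RefSeq synonyms.

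In a simulation of KO against WT over 13039 genes, the share that edgeR found was 25% at 1.5-fold, 56.1% at 2-fold and 89.6% at 4-fold, and 7 of its 119 calls were false; no smaller change was simulated.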

Additional observations from a re-analysis of the deposited data

How the results depend on the processing

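No member passed the threshold under any of the 13 other settings, which were upper-quartile and RLE scaling, no filter on low counts, DESeq2, limma-voom, the replicate block, a 2-level block that sets replicate 3 apart, and leaving out each of the 6 libraries. The authors' deposited table is named as paired, and what was paired is not stated. Deviations from the group means correlated at -0.239, 0.0594 and 0.28 for same-numbered libraries, and at -0.407 to 0.302 for differently numbered ones. Deviations within a group sum to 0, so these correlations cannot decide whether the numbers mark pairs. The main fit used no pairs, and with the replicate block 0 members passed and 4 had an unadjusted p under 0.05. That count, 5 of 42 as reported (11.9%, against 6.72% of all genes), was 3 of 42 with upper-quartile scaling (7.14%, against 6.396%), 2 of 44 with no filter (4.55%, against 6.999%), and 0 to 5 with a library left out; it was at or below the share of all genes with no filter and without control replicate 2 or 3 or knockout replicate 1, 2 or 3. V segments whose shares did not overlap numbered 4 to 9 with a library left out, and J segments 3 to 8, since fewer libraries overlap less often; within the same J cluster the J number was 1. Knockout minus control, the Trbd2 share of D counts differed by -3.87 points and the Trbc2 share of C counts by 1.38 points. These shares need not measure the same thing. Trbc1 turned to a log2 fold change of 0.0087 with no filter. Within the same J cluster, share differences turned to 0.917 points for Trbj1-2, 0.398 for Trbj1-6, 0.553 for Trbj1-7, -0.200 for Trbj2-1, -0.388 for Trbj2-2, -0.0653 for Trbj2-3 and -0.278 for Trbj2-4. These shares are taken over a smaller total than shares of all J counts. Within a cluster their differences sum to 0, so the Trbj2 differences could not all stay above 0. Why these particular segments turned was not tested. With a library left out, these log2 fold changes crossed 0: Trbj1-4 (-0.078 to 0.071), Trbj1-7 (-0.17 to 0.038), Trbc1 (-0.027 to 0.021), Trbv3 (-0.017 to 0.069), Trbj2-1 (-0.050 to 0.22), Trbj2-2 (-0.097 to 0.15), Trbj2-3 (-0.075 to 0.29), Trbj2-4 (-0.061 to 0.17), Trbj2-5 (-0.030 to 0.27), Trbj2-6 (-0.028 to 0.24) and Trbj2-7 (-0.0098 to 0.23). So did the share differences of Trbv13-1 (-0.250 to 0.0285 points), Trbv15 (-0.215 to 0.120), Trbv31 (-0.111 to 0.0651), Trbj1-2 (-0.639 to 0.0334), Trbj1-4 (-0.239 to 0.357) and Trbj1-7 (-0.244 to 0.102). Depth was lowest for Trbv25 (0 to 6 counts per library) and Trbv6 (4 to 12), which were not tested; the D segments together had 329 to 427.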

Other observations

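Trbv4 lies between Trbv3 and Trbv5 and has no row under its symbol in the normalized table, so the rule left it out. Its raw counts were 257, 245 and 184 in controls and 184, 185 and 259 in knockouts. The groups overlapped, and the V totals behind the shares do not hold these counts. The long noncoding RNA 5830405F06Rik covers 75.1% of the exon bases of Trbv4. Of the other rows of the count table with a Trb symbol outside the rule, 5 were at 0 in every library and 3 had under 10 counts in all. Among 28 genes inside the locus that are no Trb segment, 17 had 0 counts in every library, and the trypsinogen gene Prss2, which sits among the segments, had 276 counts over the 6 libraries.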
